A study of Mus musculus with 12 samples.

Results

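The Notch pathway genes followed here were 8 of the 55335 genes listed in RNA-seq of dendritic cells grown from mouse bone marrow (BMDC). They comprised the ligands Dll1, Dll4 and Jag1, the receptors Notch1 and Notch2, the transcription factor Rbpj, and the target genes Hes1 and Hey1. The members were found by gene symbol and were chosen from general knowledge of the pathway once the rise of Dll4 in LPS-treated cells of these libraries was known. The LPS change without JSH-23 is therefore given for all 8 as a description with no test, and so is the interaction of Dll4. Of the 8 genes, 6 had enough counts to be tested among 14357 genes, and Hes1 and Hey1 did not.

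Notch signalling works by contact between neighbouring cells. A Delta-like or Jagged ligand on one cell binds a Notch receptor on the next, proteases release the intracellular part of the receptor, and this part joins Rbpj in the nucleus to turn on genes of the Hes and Hey families, which encode transcriptional repressors. In immune tissue, Delta-like ligands on antigen-presenting cells are known as signals to T cells and their precursors, Notch2 is known for its role in the development of some dendritic cell subsets, and Toll-like receptor stimuli are known inducers of Notch ligands.

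The study asked how NF-κB shapes the response of BMDCs to lipopolysaccharide (LPS), a molecule of the Gram-negative bacterial envelope. The 12 libraries fell into 4 groups of 3: WT (untreated), WTL (LPS at 100 ng/ml for 3 h), WT + JSH23 (JSH-23 at 100 µM for 3 h) and WTL + JSH23 (JSH-23, then LPS, at those doses and times). JSH-23 is a small molecule that keeps RelA, a subunit of NF-κB, out of the nucleus. Cells of all 4 groups came from C57BL/6 mice of genotype CreER, which carry an inducible Cre recombinase at the Rosa26 locus and, in this arm of the study, intact Ctcf alleles. The methods give male and female mice of 8 to 12 weeks, without assigning them to libraries, 6 days of culture with GM-CSF and selection of CD11c+ cells with beads. They call the replicates biological. The sources used here do not state whether cells without JSH-23 were given its solvent, do not settle whether WT cultures received the 4-OH-tamoxifen used to delete Ctcf elsewhere in the study, and do not state whether the groups with JSH-23 (replicates 1 to 3) were cultured together with the others (replicates 4 to 6). The effects of JSH-23, its solvent and any batch that goes with them therefore cannot be told apart.

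Total expected counts ran from 24664724 to 34837847 per library. All 8 dendritic cell markers were measured, with Itgax, which encodes CD11c, between 598 and 656 CPM (counts scaled to library size) by group, whereas no library held more than 8 counts of any of 5 B cell markers or more than 2 of any of 4 erythroid markers. Among 6 T cell markers, Cd3e, which defines T cells, reached at most 6 counts. Cd3d, Cd3g and Cd4 reached at most 11, 13 and 9 counts. Cd8a and Lck had enough counts to be tested, with up to 234 and 65. Of 8 neutrophil markers, Ly6g reached at most 5 counts and Elane at most 6. The 6 others had enough counts to be tested, among them S100a9 with up to 625. Of 6 endothelial markers, Pecam1, Tek and Emcn reached at most 11, 4 and 2 counts, while Kdr and Vwf were present at 20.3 to 110.0 and 50.9 to 121 CPM. Of 5 stromal markers, Col3a1 was at 0 in every library and only Pdgfrb passed the filter. WTL + JSH23 replicate 3 stood apart from its 2 partner libraries, with chi-square values per degree of freedom of 7.87 and 8.72 against at most 4.38 for any other pair of replicates. Each result for a member is therefore followed with and without it where its value matters. In bulk libraries, fewer cells of a type cannot be told apart from less RNA per cell.

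Promoter sequence was looked up because the comparisons concern NF-κB and because Rbpj itself binds DNA. The RefSeq promoter windows (GRCm38.p6, 250 bases before to 50 after each transcript start) held 8 entries for 6 of the 8 genes, and none for Hes1 and Hey1. The windows were searched on both strands for the RBPJ core TGGGAA, the N box CACNAG of Hes factors, the E box CACGTG of Hey factors and the NF-κB consensus, given here by name. The part of the window before the start that lies outside GENCODE exons is shown for the ligands, for Notch2 and for Rbpj, with RBPJ core and NF-κB matches in capitals. The stretches lie at chr17:15376933-15377182 on the minus strand (Dll1, the upstream of its 2 listed starts), chr2:119325534-119325783 on the plus strand (Dll4), chr2:137116645-137116770 on the minus strand (Jag1), chr3:98013288-98013526 on the plus strand (Notch2) and chr5:53590096-53590213 on the plus strand (Rbpj, the upstream of 2 starts).
Dll1: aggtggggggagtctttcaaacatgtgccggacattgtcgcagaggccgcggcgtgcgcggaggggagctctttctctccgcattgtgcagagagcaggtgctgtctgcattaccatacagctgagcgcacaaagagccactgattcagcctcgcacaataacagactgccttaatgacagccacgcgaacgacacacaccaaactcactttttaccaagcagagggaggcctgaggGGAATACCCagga
Dll4: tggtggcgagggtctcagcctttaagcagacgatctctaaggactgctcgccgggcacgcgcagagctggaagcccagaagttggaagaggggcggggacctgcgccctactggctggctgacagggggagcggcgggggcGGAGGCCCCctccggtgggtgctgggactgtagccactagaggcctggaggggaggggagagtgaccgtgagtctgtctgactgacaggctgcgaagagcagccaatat
Jag1: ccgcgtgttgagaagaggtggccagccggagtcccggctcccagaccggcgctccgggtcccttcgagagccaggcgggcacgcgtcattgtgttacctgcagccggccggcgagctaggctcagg
Notch2: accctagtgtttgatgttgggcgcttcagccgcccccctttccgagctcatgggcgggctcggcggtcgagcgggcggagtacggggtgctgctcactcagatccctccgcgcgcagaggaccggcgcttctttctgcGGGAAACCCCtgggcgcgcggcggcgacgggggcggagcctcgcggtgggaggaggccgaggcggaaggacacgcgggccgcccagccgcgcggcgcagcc
Rbpj: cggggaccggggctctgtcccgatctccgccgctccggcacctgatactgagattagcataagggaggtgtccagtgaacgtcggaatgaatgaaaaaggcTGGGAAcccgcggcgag

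The NF-κB pattern matched 13 bases before the upstream start of Dll1, 81 bases before its downstream start, 109 bases before the start of Dll4 and 27 bases before that of Notch1. It matched at 2 overlapping positions in Notch2, 112 and 111 bases before the start, and nowhere in the windows of Jag1 and Rbpj. Such a match occurred in 26.6% of all 32851 promoter windows. The RBPJ core was found in the windows of Rbpj alone, 149 and 65 bases before its upstream start, the second of these inside a GENCODE exon and shared with the other window. It occurred in 25.6% of all windows. An N box stood in the windows of Dll1, Dll4, Notch2 and Notch1 (3 positions, of which the 2 nearest the start overlap each other), against 42.5% of all windows, and no window of the 6 genes held the E box, which occurred in 7.15%. These matches describe letters only, and no binding was measured.

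Among the ligands, Dll4 showed a very low level without LPS and a much higher one with it. Dll4 (chromosome 2, 119325784 to 119335962, plus strand) had 0.367, 0.171 and 0.310 CPM in the 3 WT libraries, from 12, 6 and 9 counts. In WTL it had 38.2, 34.1 and 28.0 CPM. The WT + JSH23 libraries held 0.184, 0.543 and 0.442 CPM, and the WTL + JSH23 libraries 13.8, 14.2 and 17.0 CPM. Every library with LPS lay above every library without it, and the 2 LPS-treated groups did not overlap each other.

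Without JSH-23 the fitted LPS change of Dll4 was 6.89 on the log2 scale (SE 0.195), a 118-fold difference. WT held 6 to 12 counts a library, and the size moved with the scale: with limma the log2 change was 5.28 on log2(TPM + 0.1) and 3.42 on log2(TPM + 1). The lowest WTL library stood 76.3-fold above the highest WT library. With JSH-23, Dll4 rose by 5.29 (SE 0.214, adjusted p = 7.956e-15 in edgeR's quasi-likelihood test), 39.0-fold. In LPS-treated cells, JSH-23 went with a fall of Dll4 by 1.16 on the log2 scale (SE 0.105, adjusted p = 6.303e-09), to 0.447 of the WTL level; this comparison shares the WTL libraries in which the rise of Dll4 was first seen. Without LPS the change with JSH-23 was 0.44 (SE 0.493, adjusted p = 0.5198), with overlapping groups, from at most 15 counts a library. The interaction, that is the log2 LPS change with JSH-23 minus that without, was -1.60 (SE 0.512). On log2(TPM + 0.1) and log2(TPM + 1) it was -0.81 (SE 0.449) and -0.85 (SE 0.172).

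**Figure D1:**
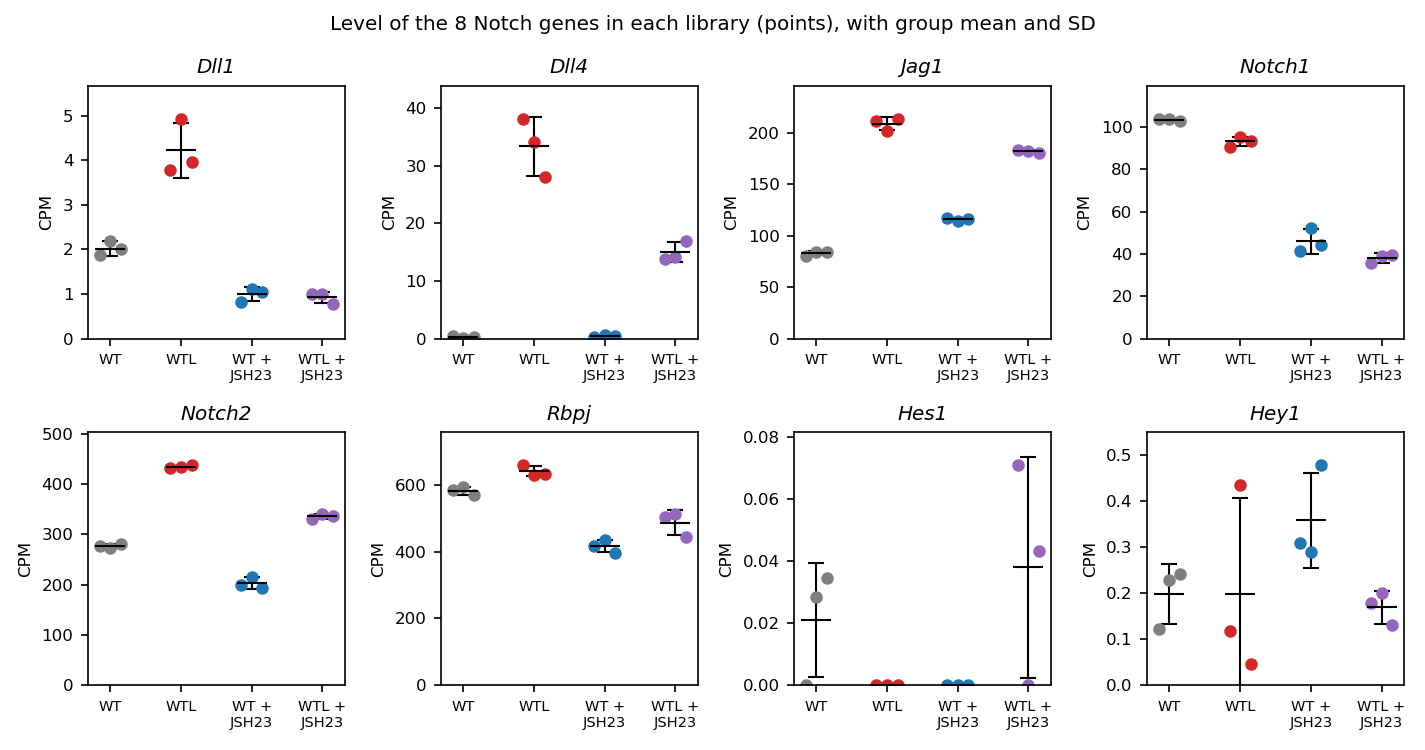
Levels of the 8 Notch genes in CPM (vertical axes, each from 0) in the 4 groups; points are libraries, and bars are the mean and SD of 3. Dll4 reached 28.0 to 38.2 CPM in WTL and 13.8 to 17.0 in WTL + JSH23 but stayed below 1 elsewhere, while Notch1 lay between 90.7 and 104 CPM without JSH-23 and between 35.5 and 52.5 with it.

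Jag1 (chromosome 2, 137081456 to 137116644, minus strand), a Jagged-type ligand, was the most abundant ligand in every group by TPM (a level per transcript length). It had 80.7, 84.1 and 84.0 CPM in WT, 211, 202 and 214 in WTL, 117, 114 and 116 in WT + JSH23, and 183, 182 and 181 in WTL + JSH23. No 2 groups overlapped, and the groups ran from WT through WT + JSH23 and WTL + JSH23 up to WTL. The LPS change of Jag1 was 1.33 on the log2 scale without JSH-23 (SE 0.0373). With JSH-23, Jag1 rose by 0.65 (SE 0.0367, adjusted p = 2.155e-12). With JSH-23 alone, Jag1 rose by 0.48 (SE 0.0375, adjusted p = 7.818e-10), and in LPS-treated cells Jag1 fell by 0.20 with JSH-23 (SE 0.0360, adjusted p = 0.0001085), so that the direction of the JSH-23 change differed with and without LPS. The test of that difference is the interaction, which for Jag1 was -0.68 (SE 0.0520, adjusted p = 3.059e-08). On log2(TPM + 1) with limma the difference between the LPS-treated groups did not pass (-0.06, adjusted p = 0.3033).

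Dll1 (chromosome 17, 15367354 to 15376872, minus strand), the other Delta-like ligand, was low in every group. WT libraries had 1.87, 2.19 and 2.00 CPM, and WTL libraries 3.80, 4.93 and 3.96. WT + JSH23 libraries had 0.830, 1.12 and 1.06 CPM, and WTL + JSH23 libraries 0.992, 0.995 and 0.778. The groups without JSH-23 were apart from each other and from both groups with it, and the latter 2 overlapped. The LPS change without JSH-23 was 1.07 on the log2 scale (SE 0.161), or 2.10-fold. With JSH-23 it was -0.10 (SE 0.228, adjusted p = 0.7383), and the interaction of Dll1 was -1.17 (SE 0.279, adjusted p = 0.005505). Dll1 fell with JSH-23 by 2.19 in LPS-treated cells (SE 0.189, adjusted p = 3.134e-09) and by 1.02 in untreated cells (SE 0.193, adjusted p = 0.0001938). These values rest on 18 to 148 counts a library. Without WTL + JSH23 replicate 3 the interaction of Dll1 was -1.07 (adjusted p = 0.0129).

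The 3 ligands thus differed in how their LPS change stood with JSH-23: a 39.0-fold rise in Dll4, a 1.57-fold rise in Jag1, and a value of 0.931-fold that did not pass in Dll1. On the TPM scale, the summed level of the 3 ligands was 30.7 ± 0.884 (SD, n = 3) in WT, 70.7 ± 2.47 in WTL, 41.1 ± 1.28 in WT + JSH23 and 60.5 ± 1.40 in WTL + JSH23. Dll4 made up 0.777% ± 0.450 of that sum in WT and 17.3% ± 2.12 in WTL, against 0.444% ± 0.200 in WT + JSH23 and 9.94% ± 1.10 in WTL + JSH23. Jag1 held 92.9% in WT and 79.5% in WTL, and 97.9% and 89.1% in the same order with JSH-23. The ratio of Jag1 to Dll4 counts within a library does not depend on scaling between libraries. It was 220 to 493 in WT, 5.53 to 7.63 in WTL, 211 to 637 in WT + JSH23 and 10.6 to 13.3 in WTL + JSH23, with no overlap between WTL and WTL + JSH23.

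The TPM of Dll1 did not follow its counts. It was 1.58 to 2.38 in WT and 1.89 to 2.67 in WTL, which overlap. The effective transcript length of Dll1, by which RSEM divides the counts, was 1365.5 to 1920.5 bases in WT and 2335.5 to 2571.8 bases in WTL, so that its higher counts were divided by a greater length. CPM also carry a scaling between libraries (TMM) that the TPM lack. The interaction of Dll1 did not pass on log2(TPM + 1) with limma (-0.20, adjusted p = 0.562).

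Both receptors were expressed and differed in their LPS change. Notch1 (chromosome 2, 26457903 to 26516663, minus strand) had 104, 104 and 103 CPM in WT and 90.7, 95.3 and 93.5 in WTL. It had 41.4, 52.5 and 44.1 CPM in WT + JSH23 and 35.5, 39.0 and 39.6 in WTL + JSH23. All 4 groups were apart, with both groups given JSH-23 below both groups without it. The LPS change of Notch1 was -0.15 without JSH-23 (SE 0.0586), and with JSH-23 Notch1 fell by 0.27 (SE 0.0664, adjusted p = 0.001526), a call that did not pass with limma on log2(TPM + 1) (-0.23, adjusted p = 0.1863). With JSH-23, Notch1 fell by 1.30 in LPS-treated cells (SE 0.0641, adjusted p = 5.011e-13) and by 1.17 in untreated cells (SE 0.0612, adjusted p = 1.731e-12), 2.45-fold and 2.26-fold. The interaction did not pass (-0.12, SE 0.0886, adjusted p = 0.3898).

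Notch2 (chromosome 3, 98013527 to 98150361, plus strand) stood at 277, 274 and 281 CPM in WT, 432, 434 and 438 in WTL, 199.7, 216 and 193 in WT + JSH23, and 331, 341 and 338 in WTL + JSH23. The groups did not overlap, and those with LPS were the higher ones. Notch2 had an LPS change of 0.65 without JSH-23 (SE 0.0384) and rose by 0.73 with it (SE 0.0389, adjusted p = 8.537e-13). With JSH-23, Notch2 fell by 0.37 with LPS (SE 0.0383, adjusted p = 5.341e-08) and by 0.45 without it (SE 0.0388, adjusted p = 4.132e-09). The interaction was 0.08 (SE 0.0544, adjusted p = 0.3538).

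As a description, the number of Notch2 counts per Notch1 count within a library was 2.64 to 2.73 in WT, 4.56 to 4.77 in WTL, 4.11 to 4.83 in WT + JSH23 and 8.53 to 9.30 in WTL + JSH23. WTL and WT + JSH23 overlapped, and the other groups stood apart. On the TPM scale Notch2 held 70.3% ± 1.24 (SD, n = 3) of the summed level of the 2 receptors in WT, 79.7% ± 0.785 in WTL, 79.6% ± 0.785 in WT + JSH23 and 86.9% ± 3.31 in WTL + JSH23.

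**Figure D2:**
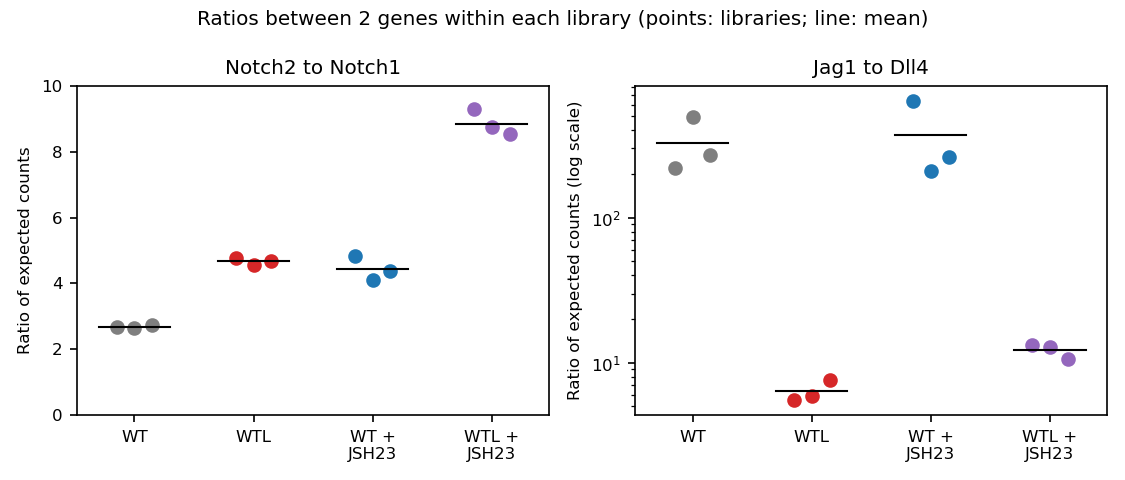
Ratio of expected counts within each library for Notch2 to Notch1 (left, linear axis from 0) and Jag1 to Dll4 (right, log axis); points are libraries and lines are group means. The Notch2 to Notch1 ratio was lowest in WT (2.64 to 2.73) and highest in WTL + JSH23 (8.53 to 9.30), and the Jag1 to Dll4 ratio was at least 211 without LPS and at most 13.3 with it.

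Rbpj (chromosome 5, 53466152 to 53657362, plus strand), the DNA-binding partner of the released receptor, was the most abundant of the 8 genes by TPM. It had 585.5, 594.0 and 569 CPM in WT, 659, 631 and 635 in WTL, 418, 434 and 398 in WT + JSH23, and 505, 514 and 444 in WTL + JSH23. The groups did not overlap. Its LPS change was 0.14 without JSH-23 (SE 0.0471), and with JSH-23 Rbpj rose by 0.23 (SE 0.0475, adjusted p = 0.0003728), that is 1.10-fold and 1.17-fold. On the TPM scale the first of these was -0.21 (limma on log2(TPM + 1)) and the second 0.01 (adjusted p = 0.8984), so the LPS direction of Rbpj depends on the scaling. Rbpj fell with JSH-23 by 0.40 in LPS-treated cells (SE 0.0474, adjusted p = 4.521e-07) and by 0.48 in untreated cells (SE 0.0473, adjusted p = 2.906e-08). The interaction was 0.09 (SE 0.0668, adjusted p = 0.4058), and 0.15 without WTL + JSH23 replicate 3 (adjusted p = 0.04539).

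The 2 target genes were close to the limit of detection. Hes1 (chromosome 16, 30064384 to 30067796, plus strand) had 0, 1 and 1 counts in WT, 2, 0 and 1 in WTL + JSH23, and 0 in all 6 libraries of WTL and WT + JSH23. A count of 0 allows up to 3 counts, which is 0.0922 to 0.138 CPM in those 6 libraries, for counting error only. Hey1 (chromosome 3, 8663359 to 8667256, minus strand) had 4, 8 and 7 counts in WT, 3, 13 and 1 in WTL, 10, 8 and 14 in WT + JSH23, and 5, 5 and 3 in WTL + JSH23. The 3 highest Hey1 libraries by count were 2 of WT + JSH23 and 1 of WTL, and the WTL libraries alone ran from 1 to 13 counts. By CPM the WT + JSH23 libraries (0.289 to 0.476) lay above those of WT (0.122 to 0.241) and WTL + JSH23 (0.130 to 0.199), and the WTL libraries (0.0460 to 0.433) overlapped all 3. Hes1 and Hey1 were not tested, and these values rest on at most 14 counts a library.

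In TPM, which allows levels to be set side by side between genes, Rbpj led in all groups at 201 ± 1.80 (SD, n = 3) in WT, 173 ± 5.58 in WTL, 144 ± 11.2 in WT + JSH23 and 145 ± 11.97 in WTL + JSH23. In WT it was followed by Notch2 (43.9 ± 0.949), Jag1 (28.6 ± 0.412), Notch1 (18.5 ± 0.711), Dll1 (1.94 ± 0.407), Dll4 (0.240 ± 0.142), Hey1 (0.147 ± 0.0493) and Hes1 (0.0600 ± 0.0721). Hey1 overlapped both Dll4 and Hes1. In WTL the order after Rbpj was Jag1 (56.2 ± 2.54), Notch2 (54.6 ± 1.58), Notch1 (13.9 ± 0.996) and Dll4 (12.3 ± 1.69), with Jag1 overlapping Notch2 and Notch1 overlapping Dll4, and then Dll1 (2.21 ± 0.408) and Hey1 (0.173 ± 0.215). With JSH-23, Jag1 lay above Notch2 both without LPS (40.3 ± 1.39 and 32.0 ± 2.19) and with it (53.9 ± 1.72 and 46.2 ± 0.505). In WT + JSH23 Notch1 (8.21 ± 0.931) and Dll1 (0.687 ± 0.272) came next, and Hey1 (0.293 ± 0.118) overlapped Dll4 (0.183 ± 0.0833). Dll4 at 6.01 ± 0.628 again overlapped Notch1 at 6.98 ± 2.03 in WTL + JSH23. The spread of Notch1 in that group came with an effective length of 5912.5 bases in WTL + JSH23 replicate 3, against 9225.6 bases in the longest.

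**Figure D3:**
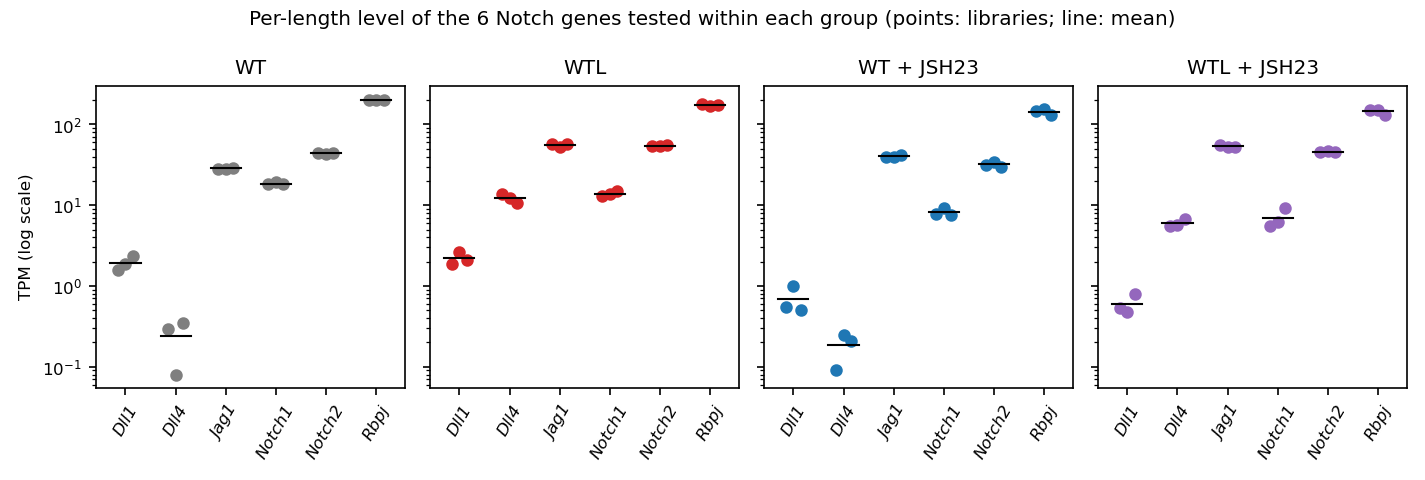
Levels of the 6 tested Notch genes in TPM (log axis) within each group; points are libraries and lines are means. Rbpj was at the top of every group, and Dll4 moved from 0.240 TPM in WT to 12.3 TPM in WTL, where it overlapped Notch1 at 13.9 TPM.

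Read against all genes tested, calls were frequent in every comparison. With LPS after JSH-23, 4 of the 6 tested members rose (Dll4, Jag1, Notch2, Rbpj) and Notch1 fell, where 27.4% of all genes rose and 27.1% fell. With JSH-23 in LPS-treated cells, all 6 tested members fell, where 24.2% of all genes fell and 24.5% rose. Dll4 cannot be read against that share, since its raised level in these WTL libraries was known when the members were chosen. With JSH-23 in untreated cells, Dll1, Notch1, Notch2 and Rbpj fell, Jag1 rose and Dll4 did not pass, where 22.1% of all genes fell and 18.8% rose. Of the 5 members whose interaction was tested, Dll1 and Jag1 passed with a negative value and the other 3 did not pass, where 8.44% of all genes had a negative and 9.54% a positive interaction that passed. For the LPS change without JSH-23, which bears on the choice of members, 31.0% of all genes rose and 34.7% fell, and nothing is read from the members' share. The comparisons share libraries: both JSH-23 comparisons and both LPS comparisons draw on the same 4 groups.

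**Figure D4:**
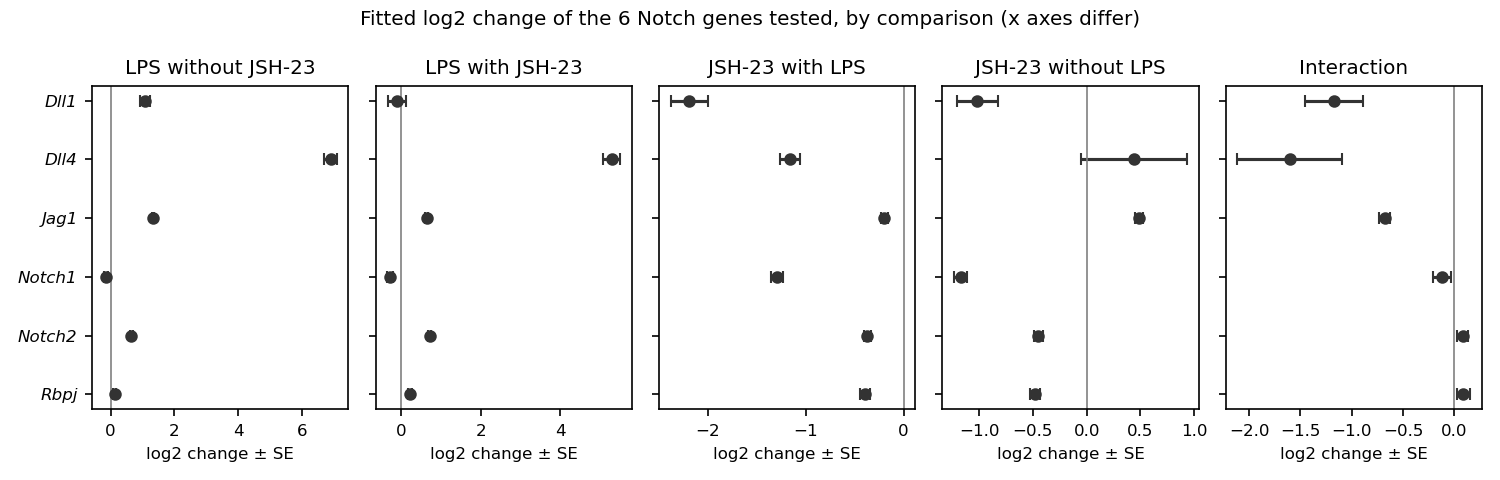
Fitted log2 change (horizontal axes, which differ between panels) with its SE for the 6 tested Notch genes in the 5 comparisons. All 6 lie left of 0 for JSH-23 with LPS, from -0.20 for Jag1 to -2.19 for Dll1, and for the interaction Dll1, Dll4 and Jag1 lie between -0.68 and -1.60.

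Summed macrophage markers (7 of 7 tested) were highest in WT and lowest in WTL + JSH23, as was Notch1: 2338.5 to 2460.4 TPM in WT, 1621.7 to 1729.3 in WTL, 1710.6 to 1761.9 in WT + JSH23 and 1356.7 to 1375.9 in WTL + JSH23. With LPS, both without and with JSH-23, 7 of the 8 dendritic cell markers rose and 0 fell, and 2 of the 7 macrophage markers rose and 4 fell. Of all genes tested, 31.0% rose and 34.7% fell without JSH-23, and 27.4% rose and 27.1% fell with it. With JSH-23 in LPS-treated cells 5 of the 7 macrophage markers fell and 1 rose. Of the 8 dendritic cell markers 6 fell and 1 rose, and all 6 tested neutrophil markers fell. In that comparison 24.2% of all genes fell and 24.5% rose. Dendritic cell markers summed to 23732 to 24457 TPM in WT and 22284 to 23047 in WTL. Their sum was thus lower in WTL, while the calls above rest on TMM-scaled counts. In WT + JSH23 they summed to 22596 to 23013 TPM and in WTL + JSH23 to 21518 to 22735, which overlap. The summed neutrophil markers lay between 170.96 and 225.5 TPM. The summed T cell markers were at most 8.74 TPM, in WT + JSH23. Lck, Cd8a and Cd3d had means of 2.58, 2.25 and 1.51 TPM in that group. Markers of B cells and erythroid cells summed to at most 0.630 and 0.460 TPM. Of the other lists, endothelial markers summed to 45.7 to 68.5 TPM through Kdr and Vwf, and stromal markers to 6.66 to 7.22 TPM in WTL against 0.660 to 0.980 in WT through Pdgfrb. Their part in the results for the Notch genes was not tested.

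Apart from the members, 58 genes of the Notch pathway were listed by role, and 48 of them were tested. With LPS and without JSH-23, 12 rose, 24 fell and 12 did not pass, with a median log2 change of -0.12 against -0.05 for all genes tested. These are 25% and 50% of the list, against 31.0% and 34.7% of all genes. With LPS after JSH-23, 12 rose, 18 fell and 18 did not pass (median -0.07 against -0.02), that is 25% and 37.5% of the list against 27.4% and 27.1% of all genes. In LPS-treated cells 12 rose and 15 fell with JSH-23, 25% and 31.2% against 24.5% and 24.2% of all genes (median 0.02 in both). In untreated cells 10 rose and 17 fell with JSH-23, 20.8% and 35.4% against 18.8% and 22.1% (median -0.09 against -0.01). The interaction passed with a positive value in 8 and a negative value in 6, 16.7% and 12.5% against 9.54% and 8.44% of all genes (median 0.10 against 0.03). The 8 became 5 without WT replicate 4, WTL replicate 5 or WT + JSH23 replicate 3, and the 6 became 0 with limma on log2 TPM.

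Of the other ligands and receptors, only Jag2 and Notch3 were tested, and Dll3, Dlk1, Dlk2 and Notch4 held at most 19 counts in any library. Jag2, the second Jagged-type ligand, fell with LPS without JSH-23 by 1.05 on the log2 scale (adjusted p = 0.003423), from 32 to 40 counts a library in WT to 7 to 18 in WTL. With JSH-23 its LPS change was -0.17 and did not pass (adjusted p = 0.6285). Notch3 passed as lower with LPS both without JSH-23 (adjusted p = 0.001715) and with it (adjusted p = 0.04371). It held 11 to 16 counts in WT and 1 to 2 in WTL, and 4 to 18 in WT + JSH23 against 3 to 6 in WTL + JSH23, so that no fold is given.

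Among the 5 glycosyltransferases that modify the receptor, 3 fell with LPS in both comparisons. Of all genes tested, 34.7% fell with LPS without JSH-23 and 27.1% with it. Mfng, a Fringe enzyme, went from 3.44 ± 0.346 CPM in WT to 0.921 ± 0.0802 in WTL and from 2.49 ± 0.426 in WT + JSH23 to 0.667 ± 0.0279 in WTL + JSH23 (SD, n = 3), falling by 1.88 and 1.89 on the log2 scale (adjusted p = 1.492e-08 and 1.224e-07). The other 2 were the Fringe enzymes Lfng and Rfng, while Poglut1 rose.

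Ubiquitin ligases act on the ligand in the sending cell. Neurl1b stood at 4.94 ± 0.324 CPM in WT and 0.342 ± 0.114 in WTL, where it fell by 3.86 on the log2 scale (adjusted p = 7.409e-13). It stood at 3.16 ± 0.292 CPM in WT + JSH23 and 0.998 ± 0.153 in WTL + JSH23, where it fell by 1.65 (adjusted p = 1.058e-07). Its interaction of 2.21 (SE 0.312, adjusted p = 4.219e-05) was the only one in the list that both passed and was above 2-fold. In LPS-treated cells Neurl1b was higher with JSH-23 by 1.57 (adjusted p = 7.844e-05). Mib2 fell from 18.6 ± 1.67 CPM in WT to 6.97 ± 0.673 in WTL (adjusted p = 3.933e-12). Neurl1a, at 4 to 5 counts a library in WT, rose with LPS by 2.44 without JSH-23 (adjusted p = 1.235e-05) and by 1.25 with it (adjusted p = 0.004309). In untreated cells Neurl1a also rose with JSH-23, by 1.13 (adjusted p = 0.04847), to 6 to 11.85 counts a library. With so few counts the sizes of these Neurl1a changes are uncertain. Mib1 did not pass in either LPS comparison.

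Among the 10 receptor proteases, Furin, which cuts the receptor precursor, rose from 121 ± 1.40 CPM in WT to 286 ± 3.38 in WTL (adjusted p = 3.629e-17) and from 144 ± 5.97 in WT + JSH23 to 294 ± 7.55 in WTL + JSH23 (adjusted p = 1.524e-15). Aph1b and Aph1c, subunits of γ-secretase, are near-identical copies whose counts RSEM divides, and their values are uncertain for that reason. Aph1b rose with LPS by 1.91 without and 2.01 with JSH-23 (adjusted p = 2.541e-14 and 2.572e-14), and Aph1c rose with JSH-23 by 1.18 in LPS-treated and 1.22 in untreated cells (adjusted p = 5.221e-10 and 8.082e-11).

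Of 8 coactivators and 8 corepressors in the nucleus, 4 and 5 fell with LPS without JSH-23 and 1 of each rose, where 34.7% of all genes fell and 31.0% rose. The histone acetyltransferase gene Kat2a fell from 16.4 ± 0.458 to 7.13 ± 0.0823 CPM (adjusted p = 1.277e-11). The Groucho-family corepressor gene Tle3 rose from 76.2 ± 0.855 CPM in WT to 216 ± 5.65 in WTL and from 51.4 ± 3.11 in WT + JSH23 to 114 ± 4.26 in WTL + JSH23 (adjusted p = 1.465e-17 and 5.78e-15). Among 9 tested genes listed here as inhibitors, Deltex genes included, 4 rose and 4 fell with LPS without JSH-23. Dtx2, a Deltex ubiquitin ligase, rose from 21.3 ± 1.22 to 47.7 ± 4.98 CPM in that comparison (adjusted p = 6.772e-12).

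Of 7 further genes listed as targets only Hes6 and Nrarp were tested. Both fell with LPS in both comparisons, where 34.7% of all genes fell without JSH-23 and 27.1% with it. Nrarp, a target that acts as feedback on the receptor, held 9.84 to 17 counts in WT and 0 to 2 in WTL (adjusted p = 0.0003222), and 8 to 21 in WT + JSH23 and 1 to 4 in WTL + JSH23 (adjusted p = 0.003433), which is too few for a fold. Hes5, Hes7, Hey2, Heyl and Dtx1 held at most 16 counts in any library.

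**Figure D5:**
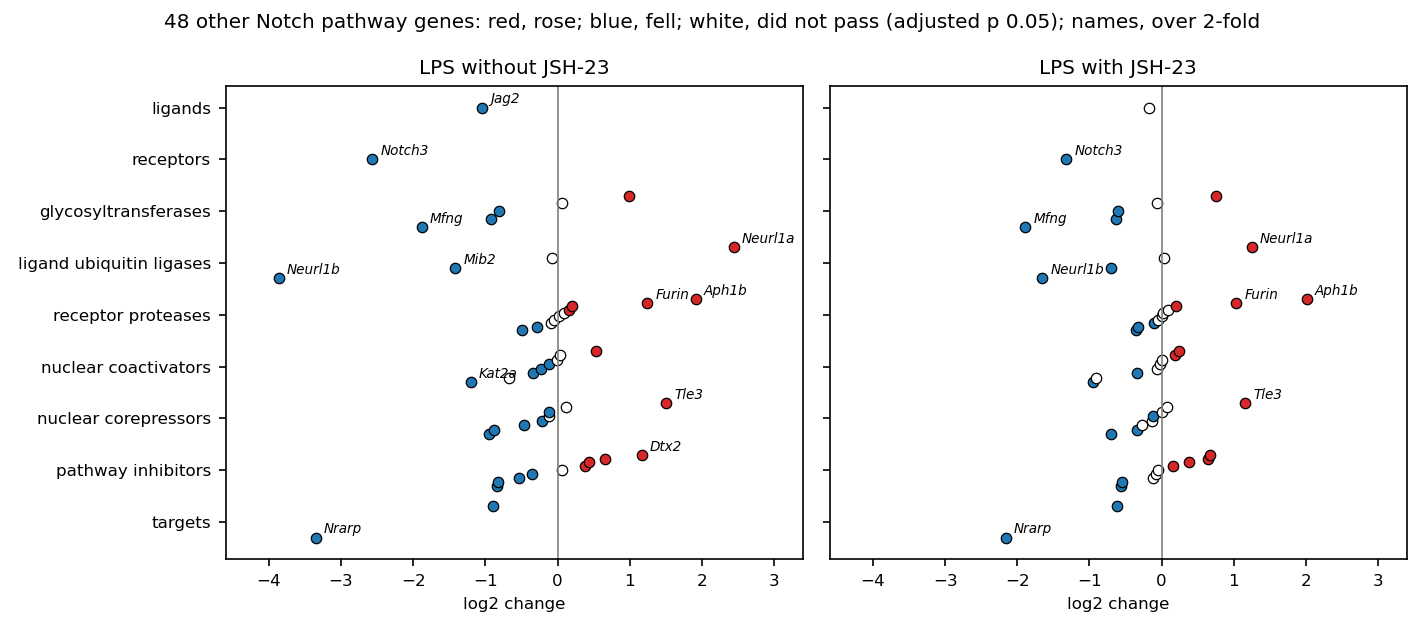
Log2 change with LPS (horizontal axis) of the 48 tested Notch pathway genes other than the members, by role, without (left) and with JSH-23 (right); red rose, blue fell, white did not pass, and names mark changes over 2-fold that passed. Neurl1b and Nrarp lie farthest left and Neurl1a and Aph1b farthest right in the panel without JSH-23, with 24 genes fallen and 12 risen.

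For each tested member, the 3 protein-coding genes with the highest Pearson r of log2 CPM over the 12 libraries were taken from 11346 genes; the libraries share groups, so r mostly follows the 4 group means. For Dll4 these were Traf1 (r = 0.9975), Fgf23 and Ntng2. Traf1, an adaptor of TNF receptor signalling, stood at 494 CPM in WT, 1026 in WTL, 511 in WT + JSH23 and 924 in WTL + JSH23. For Jag1 they were Ptpre (r = 0.9938), Eif4a1 and Il12b, the gene of an interleukin-12 subunit, which stood at 114, 2696, 275 and 1730 CPM in the same order. Dll1 was most like Ythdf1 (r = 0.9852), Parp12 and Cmtm6, and Notch1 was most like Ifi206 (r = 0.9929) and Uba7. Notch2 was most like St3gal1 (r = 0.9959), Hivep1 and Chd4, and Rbpj most like Pot1b (r = 0.9949), Lnpep and Alpk1. By Spearman's rho 1 of these 18 genes was again among the nearest.

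Some counts could be shared with other features. Notch1, Notch2 and Rbpj had fractional counts in all 12 libraries. The pseudogene Rbpj-ps3 held 281 to 328 counts in WT, 227 to 366 in WTL, 180 to 229 in WT + JSH23 and 171 to 220 in WTL + JSH23, which is 1.34% to 1.93% of those of Rbpj over the 12 libraries. The antisense gene Gm14207, which overlaps exons of Dll4, had 0 to 3 counts in WT, 18 to 26 in WTL, 1 to 5 in WT + JSH23 and 4 to 11 in WTL + JSH23. The methods call the libraries strand-specific, but whether counting used strand is not stated. Notch1 overlaps 0610009E02Rik, with at most 110.2 counts, and Gm13568, with at most 53.6.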

How the data were processed

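The 12 RNA-seq libraries of mouse BMDCs were placed in 4 groups of 3 by their sample titles. The authors trimmed the reads (Trim Galore), aligned them to mm10 with STAR (version 2.6.0c in the submitters' processing notes) and quantified genes with RSEM. The GENCODE release used is not given in the sources used here. The labels name a kit that depletes ribosomal RNA and the methods one that selects poly(A) RNA, and which applied was not settled. The deposited expected counts are estimated read pairs per gene, unfiltered and not normalized, where RSEM splits ambiguous pairs between genes. The deposited TPM were computed by the authors from these counts and effective transcript lengths, which are deposited beside them and were read here too. Of 55335 gene identifiers, 55154 matched GENCODE release M21 without the version suffix, which gave symbols and positions on GRCm38 (mm10).

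Expected counts were rounded. The filterByExpr function of edgeR 4.0.16 (R 4.3.3, minimum count 10) left 14357 genes, and libraries were scaled by TMM. The quasi-likelihood F-test was fitted to all 12 libraries with 1 mean per group and 8 residual degrees of freedom. P-values were two-sided and adjusted by Benjamini-Hochberg over all genes tested, and a gene passed, rose or fell at an adjusted p under 0.05. CPM (counts-per-million) were computed with the TMM-scaled library size. SE is the absolute log2 change divided by the square root of F. The 5 comparisons were LPS without and with JSH-23, JSH-23 with and without LPS, and their interaction. The fit was tested on simulated data. Replicate numbers were not used to pair the libraries in the main fit. Deviations from the group means correlated at 0.0142 to 0.0614 between same-numbered libraries and at -0.0565 to 0.0355 between differently numbered ones. Whether same-numbered libraries belong together was not settled. Depth, from 24664724 to 34837847 counts a library, bears on Dll1, Hes1, Hey1 and, without LPS, Dll4, and limits from counts cover counting error only.

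The members and lists were chosen with earlier results of these data known. Genes of the pathway list are named where they changed over 2-fold at an adjusted p under 0.05, and otherwise counted. A few others (Mib1, Lfng, Rfng, Poglut1, Hes6) and the untested ones are named only to complete a count. Alternatives were DESeq2 1.42.0, other scaling and filters, limma 3.58.1 on log2 TPM (pseudocounts 1 and 0.1), a 2-fold rule, fits of 2 groups only, a replicate block and leaving out each library. Of the 18 genes nearest to the members by pattern, 1 is not reported here. Promoter windows are those of RefSeq.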

Additional observations from a re-analysis of the deposited data

Results flagged for a closer look

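The LPS change with JSH-23 differed from that without it, by the interaction test of edgeR at an adjusted p under 0.05, in Dll1 (log2 difference -1.17) and Jag1 (-0.68). Both had a smaller fitted LPS change with JSH-23.

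Among the pathway genes that changed over 2-fold in some comparison, the same test passed for 5. These genes were picked by their changes in these same data. Over the 48 tested genes of the list, 16.7% passed with a positive and 12.5% with a negative interaction. Of all genes tested, 9.54% and 8.44% did so. Neurl1b had an interaction of 2.21 and Mib2 one of 0.71, and both fell less with LPS after JSH-23. Furin had -0.21, Tle3 -0.35 and Dtx2 -0.49, and their rises were smaller after JSH-23. In LPS-treated cells the JSH-23 change did not pass for Furin (0.04) and Dtx2 (-0.001). Both were higher with JSH-23 in untreated cells, by 0.25 and 0.49. Tle3 fell with JSH-23 both in LPS-treated cells (-0.92) and in untreated ones (-0.57). Groups of 3 libraries are too small for a test of single outlying libraries.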

How the results depend on the processing

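For the 6 tested members, 591 of 635 recomputed log2 changes kept their direction and their side of the threshold (for untested values, moved by less than the spread), 19 no longer passed, mostly under a 2-fold rule, 1 newly passed, 18 untested ones moved further and 6 changed sign. With limma on log2(TPM + 1), which moved the median of all genes by -0.21 for LPS without and -0.14 for LPS with JSH-23, these 6 concerned 3 genes: Rbpj with LPS without JSH-23 (-0.21, and -0.21 with pseudocount 0.1), Dll4 with JSH-23 without LPS (-0.063 and -0.21) and the interaction of Notch1 (0.16 and 0.15). Counts of genes higher and lower on this scale were 1911 and 7802 (1924 and 7847 with 0.1) against 4451 and 4986 for LPS without JSH-23, and 1977 and 5947 (1973 and 5911) against 3935 and 3893 with it. For JSH-23 with LPS 1967 (1961) were lower against 3478, and for the interaction 362 (324) against 1212. In the pathway list 7 genes were higher in both LPS comparisons with either pseudocount against 12, 28 were lower with 0.1 against 18 for LPS with JSH-23, 6 (7) were lower against 15 for JSH-23 with LPS, and 0 against 6 for the interaction. The deposited TPM entered these fits without TMM scaling, whose factors were 1.08 to 1.09 in WT and 0.859 to 0.880 in WTL. They were 1.11 to 1.12 in WT + JSH23 and 0.939 to 0.956 in WTL + JSH23. How far this scaling and the effective lengths account for each difference was not tested.

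With a 2-fold rule added, genes higher and lower were 1056 and 1305, 840 and 644, 538 and 467, 349 and 422, and 134 and 58, in the order of the comparisons, and those of the list 5 and 7, 4 and 4, 2 and 0, 2 and 0, and 1 and 0. The share of higher among called genes was 47.2%, 50.3%, 50.3%, 45.9% and 53.1%. It moved by over 10 points on log2(TPM + 1), to 19.7% and 24.95% for the LPS comparisons in the same order, 68.3% for JSH-23 with LPS and 79.5% for the interaction, to 37.7% for LPS with JSH-23 by upper quartile scaling and for the interaction to 41.1% by DESeq2 and 69.8% with the 2-fold rule.

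Leaving out a library in turn left 5 to 9 list genes with a positive interaction against 8, with 5 without WT replicate 4, WTL replicate 5 or WT + JSH23 replicate 3. It left the untested LPS change of Dll4 at 6.60 to 7.14 and kept all member calls but that of the Rbpj interaction (0.15 without WTL + JSH23 replicate 3). The replicate block, which paired libraries by replicate number, gave 12 and 25 list genes higher and lower for LPS without JSH-23. It changed no member's call (Dll1 interaction -1.17, Jag1 -0.68). By CPM, 6, 6, 4 and 6 of the 8 members kept their place in the order of levels in WT, WTL, WT + JSH23 and WTL + JSH23. By Spearman's rho 1 of 18 nearest genes was named again.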
